A study of Gallus gallus with 858 samples.

Results

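RXRG (retinoid X receptor gamma, ENSGALG00000040730) was followed in single cells of the chick cranial ectoderm, as 1 gene of the 24356 counted. It was chosen with its pattern in these same cells already known, so its levels are given as a description and no test was made on them. A cell was called RXRG-positive at or above 10 CPM, where CPM is the reads of a gene divided by all counted reads of that cell, times 1000000. The cells were divided by 3 other transcripts. SOX10-high cells (at least 100 CPM of SOX10, a transcription factor of both the ear placode and the neural crest) were divided by GATA3, an early ear factor, into GATA3-positive cells (at least 10 CPM), meant to hold otic cells, and GATA3-negative cells, meant to hold neural crest. VGLL2-positive cells (at least 10 CPM of VGLL2, a cofactor found here with the epibranchial markers) stood for the neighbouring epibranchial placode, and may also be SOX10-high. All other cells are called remaining cells.

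Retinoid X receptors are nuclear receptors that bind DNA as partners of other receptors. With a retinoic acid receptor, the pair switches target genes when retinoic acid binds, and retinoic acid from the mesoderm patterns the hindbrain and the ear next to it. RXRG is the member of the family with the most restricted expression, and in birds its transcript is known from migrating neural crest and the peripheral glia that come from it.

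All cells came from embryos electroporated at head fold stages with a plasmid in which the Pax2 enhancer Pax2E1 drives EGFP, so every group carried the reporter and there was no untreated group. Heads were cut in front of the first somite and sorted for EGFP into single wells for full-length SmartSeq2 libraries, at 8 to 9 (ss8), 11 to 12 (ss11) or 14 to 15 somites (ss15). The plasmid is taken up by some cells of each head only, and the sort then selects by EGFP, so shares below are shares of sorted cells and not of a tissue. The labels name no embryo, so each stage counted as 1 sample, and stage cannot be told apart from sort, library preparation and sequencing run. Intervals are exact 95% intervals (binomial, for shares and for ratios of pooled reads) and cover counting error only, because SmartSeq2 reads hold PCR copies and cells of 1 stage are not replicates of it.

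After 8 pairs of near-identical ss8 libraries had been joined, 781 of 850 cells had at least 500000 reads and 1000 genes. This left out 7 cells at ss8, 22 at ss11 and 40 at ss15, and the rest had medians of 1252786, 1031422 and 843786 reads at these stages. RXRG had 4433, 10057 and 16404 reads at the 3 stages, and 58, 70 and 70 cells were RXRG-positive.

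In most cells RXRG either had no read or lay above the limit, and no read does not mean that the transcript was absent. In 557 of the 781 cells it had no read, in 26 it had reads but stayed under 10 CPM, and the values closest to that limit were 9.47 CPM below and 10.2 CPM above it. Between 5 and 20 CPM lay 19 cells. The class limits were less empty for SOX10, with 49 cells between 50 and 200 CPM and the closest values at 97.5 and 103.6 CPM. For GATA3, 10 SOX10-high cells lay between 5 and 20 CPM, the closest at 9.18 and 10.3 CPM. For VGLL2, 9 cells lay there, the closest at 8.53 and 12.5 CPM.

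RXRG was detected in part of the SOX10-high cells of either kind and at higher levels in those without GATA3. Of the GATA3-positive cells, 6 of 16 were RXRG-positive at ss8 (37.5%, 15.2 to 64.6), 23 of 63 (36.5%, 24.7 to 49.6) at ss11 and 27 of 64 (42.2%, 29.9 to 55.2) at ss15. Of the GATA3-negative cells, 10 of 22 were positive at ss8 (45.5%, 24.4 to 67.8), 37 of 69 (53.6%, 41.2 to 65.7) at ss11 and 33 of 46 (71.7%, 56.5 to 84.01) at ss15. The intervals of the 2 classes overlapped at ss8 and ss11 and lay apart at ss15. RXRG was chosen on these shares, so nothing is read from that separation. VGLL2-positive cells gave 1 of 3 at ss8, then 3 of 31 (9.68%, 2.04 to 25.8) and 6 of 62 (9.68%, 3.63 to 19.9) at the later stages. Among remaining cells there were 41 at ss8 (17.7%, 12.99 to 23.2), 8 (7.62%, 3.35 to 14.5) at ss11 and 10 of 85 (11.8%, 5.79 to 20.6) at ss15. At ss11 and at the later stage the order of the shares was GATA3-negative, GATA3-positive, then VGLL2-positive and remaining cells, and the last 2 had overlapping intervals.

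**Figure D1:**
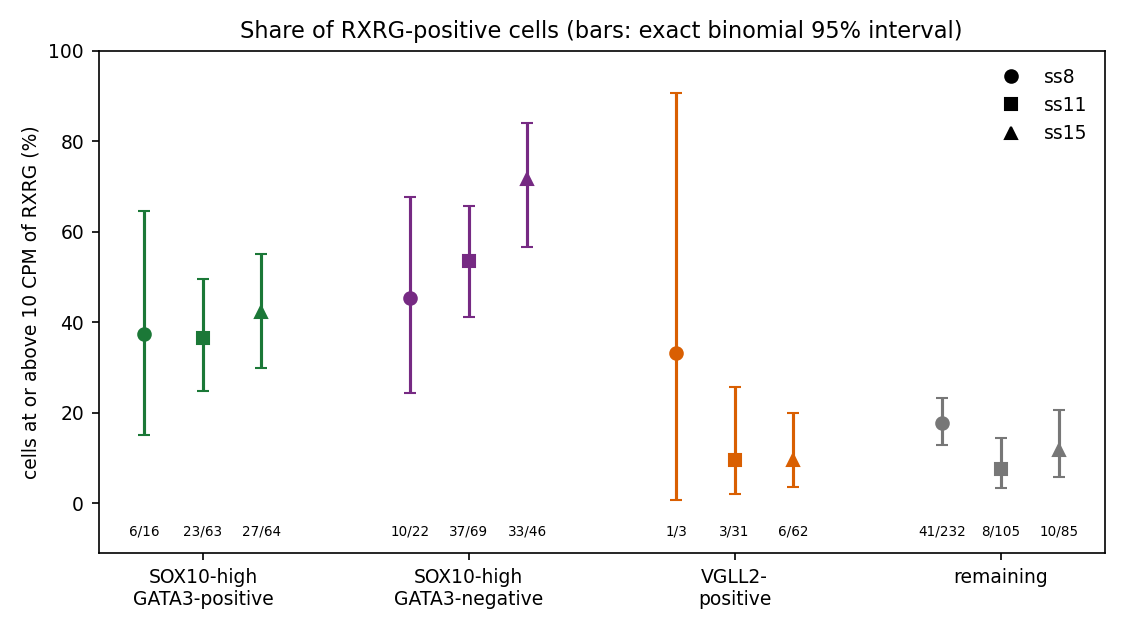
Share of cells at or above 10 CPM of RXRG (vertical axis, percent) by class (horizontal axis) at ss8 (circles), ss11 (squares) and ss15 (triangles), with positive and total cells printed below and exact binomial 95% intervals as bars. GATA3-negative SOX10-high cells stand at 71.7% at ss15, with GATA3-positive ones at 42.2%, while VGLL2-positive cells stay at 9.68% at ss11 and ss15.

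The level in single cells was then compared. In GATA3-positive cells the median was 0 CPM at each stage, the highest cell had 167.9 CPM at ss8, 382 at ss11 and 634 at ss15, and 2, 11 and 14 cells reached 100 CPM. In GATA3-negative cells the median was 0.27, 54.7 and 205.8 CPM, the highest cell had 342, 619 and 1183 CPM, and 3, 27 and 31 cells reached 100 CPM at these stages. The lowest cell of either class was at 0 at each stage, so the classes overlapped throughout. Among RXRG-positive cells alone, the median was 48.2, 72.6 and 124.6 CPM in GATA3-positive cells and 86.3, 126.9 and 260.6 CPM in GATA3-negative cells at ss8, ss11 and ss15.

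**Figure D2:**
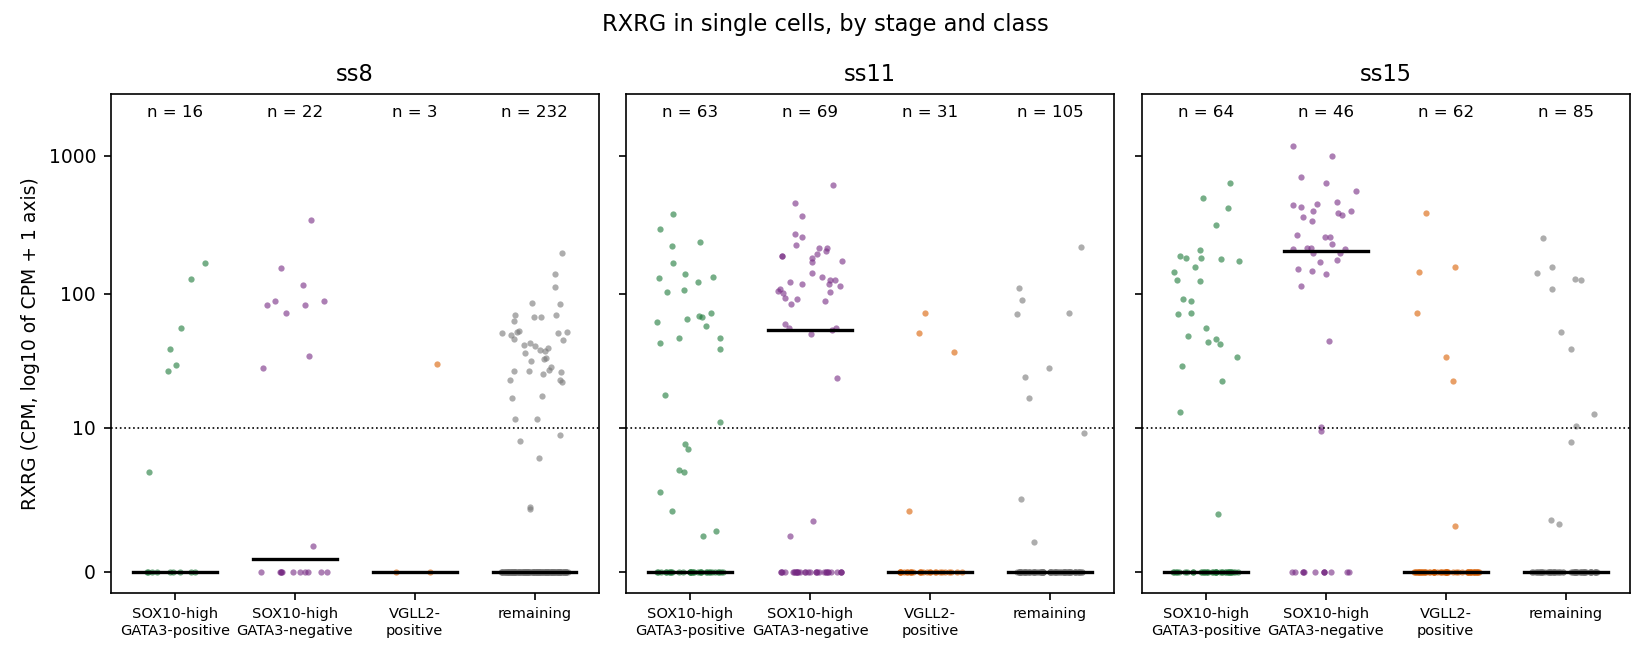
RXRG in each kept cell (points; vertical axis in CPM, drawn as log10 of CPM + 1) by class and stage, with the class median as a black line and the 10 CPM limit dotted. Most cells lie at 0 or above the limit, and the median of GATA3-negative SOX10-high cells is 205.8 CPM at ss15 while that of GATA3-positive ones is 0.

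Pooled over the cells of a class, RXRG stood at 29.9, 39.9 and 71.9 CPM in GATA3-positive cells and at 43.6, 92.7 and 257.6 CPM in GATA3-negative cells at ss8, ss11 and ss15. The ratio of GATA3-positive over GATA3-negative cells was 0.43 at ss11 (0.41 to 0.45) and 0.28 at ss15 (0.27 to 0.29). With 1 CPM added, the log2 fold was -1.20 at ss11 and -1.83 at ss15, both past 2-fold. Of the genes measured in that comparison (at least 20 CPM pooled, and 10 CPM in 20% of the cells, in 1 class), 9.9% lay past 2-fold at ss11 and 13% at ss15. RXRG was chosen on this contrast, so nothing is read from its place among them. At ss8 the log2 fold was -0.53, beside 14.9% of measured genes past 2-fold, and the class values rested on few cells: 1 cell gave 41.2% of the RXRG reads of GATA3-positive cells and 1 cell 33.3% of those of GATA3-negative cells. Without plate 1 of the 3 ss8 plates the ss8 log2 fold was 0.11, and without plate 3 it was -1.74.

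From ss11 to ss15 the pooled level was higher in both SOX10-high classes. The ratio of ss15 over ss11 was 1.80 in GATA3-positive cells (1.72 to 1.89) and 2.78 in GATA3-negative cells (2.69 to 2.86). Only the second was past 2-fold, beside 6.21% of the genes measured in GATA3-positive cells and 8.38% of those in GATA3-negative cells. The share of positive cells in GATA3-positive cells was 42.2% at ss15 and 36.5% at ss11, with overlapping intervals. Among cells with at least 1000000 reads and 2000 genes it was 14 of 20 (70%) at ss15, and with each cell thinned to 500000 reads it stayed at 42.2%. The GATA3-negative share in the same deeper ss15 cells stayed within its main interval of 56.5 to 84.01%, which holds this 70%. The log2 fold of ss15 over ss11 in GATA3-positive cells was 1.08 in those deeper cells, past 2-fold, against 0.83 in all.

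Markers of the classes showed what they held. GATA3-positive cells carried the ear homeobox gene SOHO-1 at 10 CPM (42 of 63 cells at ss11 and 44 of 64 at ss15). Few carried the crest markers FOXD3 (5 and 5 cells), a transcription factor of premigratory crest, PAX7 (3 and 7) or EDNRB (9 and 3). More of them carried the crest markers TFAP2B (11 and 17 cells) and DRAXIN (18 and 14 cells). SOX8 marked neither class, with 60 of 63 and 54 of 64 GATA3-positive cells and 55 of 69 and 39 of 46 GATA3-negative cells at ss11 and ss15. LMX1A was in 39 and 32 GATA3-positive cells and in 22 and 12 GATA3-negative cells. GATA3-negative cells carried the crest markers TFAP2B (45 of 69 cells at ss11 and 33 of 46 at ss15), FOXD3 (35 and 24 cells) and DRAXIN (46 and 15 cells). PAX7 was in 26 and 14 of them and EDNRB in 19 and 19. However, 17 of 69 of them at ss11 and 17 of 46 at ss15 also carried SOHO-1. These SOHO-1 counts went against reading the GATA3-negative class as neural crest alone, and both classes are called here by their rule. DACT2 had been listed as an otic marker, but was in 34 of 63 and 25 of 64 GATA3-positive cells. It was in 49 of 69 and 31 of 46 GATA3-negative cells, so it did not mark the GATA3-positive class. At ss8 the GATA3-negative class held TFAP2B in 21 of 22 cells, DACT2 in 21, SOX8 in 12 and LMX1A in 9, and no SOHO-1 read. Of the 16 GATA3-positive ss8 cells, 5 held SOHO-1, 10 LMX1A, 14 SOX8 and 15 DACT2. Crest markers were in these 16 cells too, with DRAXIN in 9, EDNRB in 8, TFAP2B in 7, PAX7 in 7 and FOXD3 in 4. Of the markers of other cell types, the mesoderm genes TWIST1 and SIM1 stayed at or below 2.31 CPM pooled in both SOX10-high classes, while KRT19, an epithelial keratin, was in 56 of 64 GATA3-positive and 24 of 46 GATA3-negative cells at ss15. Summed over the 2 of 4 listed epidermal genes with an identifier, the median level at ss15 was 309 CPM in GATA3-positive cells (0 to 1672) and 59.1 CPM in GATA3-negative cells (0 to 2448). For the 2 of 4 mesodermal genes it was 0 CPM in both classes (0 to 20.9 and 0 to 35.3). For the 7 of 8 epibranchial genes it was 463, 422 and 274.2 CPM in GATA3-positive cells at ss8, ss11 and ss15. In GATA3-negative cells it was 157.98, 126.7 and 65.9 CPM. Of the 63 GATA3-positive ss11 cells, 55 held KRT18, 32 PDLIM1, 30 PRDM1, 27 NELL1, 22 UPK1B, 17 TFAP2E and 10 ISL1. At ss8 PDLIM1 was in 15 of 16 GATA3-positive and all 22 GATA3-negative cells. The GATA3-positive class is thus not read as otic alone. The part of epidermal, mesodermal or epibranchial cells in the RXRG values was not tested. No neural, blood or vessel marker could be matched to an identifier.

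Within both SOX10-high classes RXRG was found in a larger share of the cells that held TFAP2B. This division was chosen after the values had been seen. In GATA3-negative cells, 31 of 45 TFAP2B-positive cells were RXRG-positive at ss11 (68.9%) and 30 of 33 at ss15 (90.9%), against 6 of 24 (25%) and 3 of 13 (23.1%) of those without TFAP2B. In GATA3-positive cells the counts were 6 of 11 (54.5%) and 13 of 17 (76.5%) with TFAP2B, against 17 of 52 (32.7%) and 14 of 47 (29.8%) without it. Of the 4 listed otic markers with an identifier, DACT2 and SOX8 divided GATA3-negative cells in the same direction, and SOHO-1 and LMX1A in the opposite direction. In GATA3-negative cells with DACT2, 31 of 49 were RXRG-positive at ss11 and 28 of 31 at ss15. Without DACT2, 6 of 20 and 5 of 15 were. In GATA3-positive cells the counts were 13 of 34 and 15 of 25 with DACT2, and 10 of 29 and 12 of 39 without it. For SOX8 in GATA3-negative cells they were 33 of 55 and 30 of 39 with it, and 4 of 14 and 3 of 7 without it. In GATA3-positive cells they were 22 of 60 and 26 of 54 with SOX8, and 1 of 3 and 1 of 10 without it. For SOHO-1 in GATA3-negative cells they were 5 of 17 and 8 of 17 with it, and 32 of 52 and 25 of 29 without it. For LMX1A there they were 8 of 22 and 6 of 12 with it, and 29 of 47 and 27 of 34 without it.

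SOHO-1 was then added to TFAP2B as a second marker. GATA3-positive cells with SOHO-1 and without TFAP2B were RXRG-positive in 12 of 39 at ss11 (30.8%, interval 17 to 47.6), and 10 of 37 were so at ss15 (27.03%, interval 13.8 to 44.1), with medians of 0 CPM and pooled levels of 17.1 and 32.8 CPM. GATA3-negative cells with TFAP2B and without SOHO-1 gave 29 of 41 at ss11 (70.7%, interval 54.5 to 83.9), and at ss15 only 1 of 26 lacked RXRG (96.2% positive, interval 80.4 to 99.9), with medians of 108.2 and 349 CPM and pooled levels of 130.5 and 384 CPM. So RXRG was present in a share of cells that carried SOX10, GATA3 and SOHO-1 and no TFAP2B at 10 CPM, at a lower level. GATA3-negative cells with SOHO-1 and no TFAP2B had shares close to these, with 3 of 13 (23.1%) and 3 of 10 (30%). Their pooled levels were higher, at 38.2 and 72.5 CPM. All 7 GATA3-positive ss15 cells that held both markers were RXRG-positive, at 42.9 to 187.9 CPM. GATA3-positive cells with neither marker gave 5 of 13 at ss11 and 4 of 10 at ss15, with pooled levels of 60.4 and 87.5 CPM. They included the highest GATA3-positive cell of each of these stages, at 382 and 634 CPM.

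**Figure D3:**
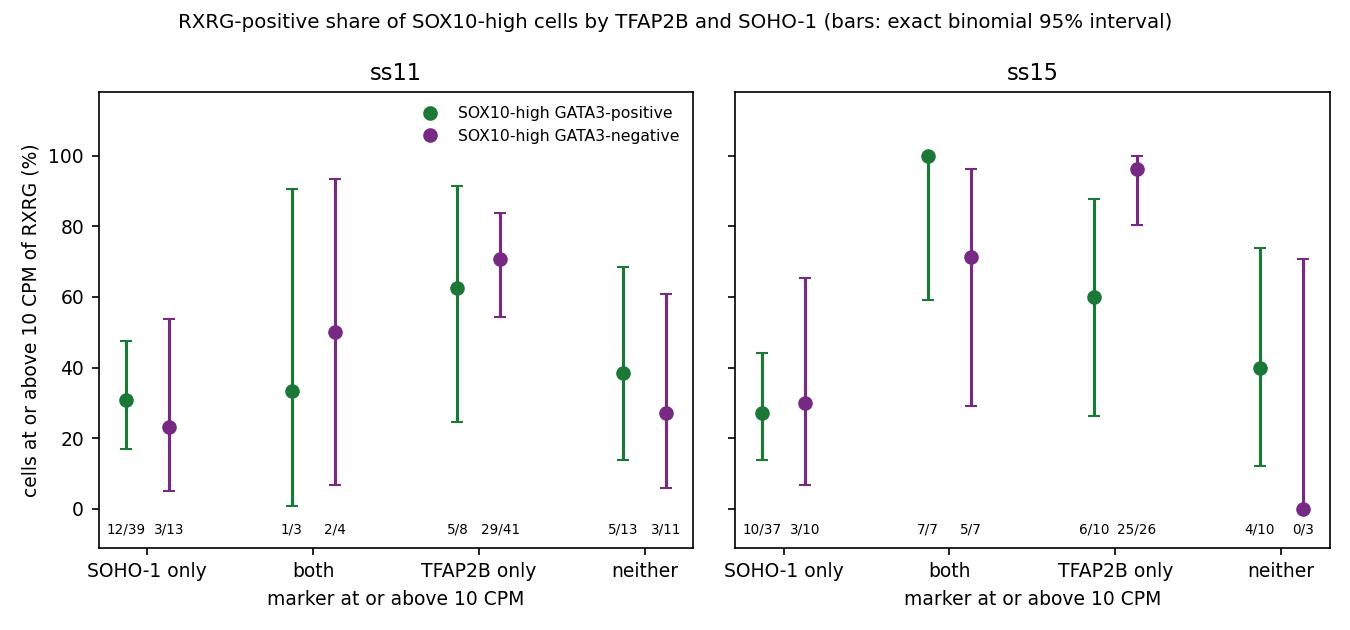
Share of RXRG-positive cells (vertical axis, percent) among SOX10-high cells with SOHO-1 alone, both markers, TFAP2B alone or neither at 10 CPM (horizontal axis), at ss11 and ss15, for GATA3-positive (green) and GATA3-negative cells (purple). Bars are exact binomial 95% intervals, and cells with SOHO-1 alone stay at or below 30.8% in each class and stage while GATA3-negative cells with TFAP2B alone reach 96.2% at ss15.

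EDNRB encodes an endothelin receptor of neural crest cells. Of GATA3-negative cells with EDNRB, 9 of 15 were RXRG-positive at ss8, 14 of 19 at ss11 and 19 of 19 at ss15 (100%, 82.4 to 100), at 45.1 to 1183 CPM. Of those without it, 1 of 7, 23 of 50 and 14 of 27 were. With FOXD3 the counts at ss15 were 22 of 24 with it and 11 of 22 without it. For PAX7, a marker of the neural fold and early crest, they were 14 of 26 with it and 23 of 43 without it at ss11, and 12 of 14 and 21 of 32 at ss15. Over all SOX10-high cells, those with 2 or 3 of the 5 crest markers PAX7, FOXD3, TFAP2B, DRAXIN and EDNRB were positive in 22 of 22 cells at ss15, those with 4 or 5 in 15 of 18 (83.3%) and those with 0 or 1 in 23 of 70 (32.9%). In the same order of 2 or 3, 4 or 5, and 0 or 1 markers, the counts were 14 of 20, 19 of 31 and 27 of 81 at ss11, and 1 of 7, 14 of 23 and 1 of 8 at ss8. The share was thus not higher with 4 or 5 markers than with 2 or 3 at ss11 and ss15.

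The amount of SOX10 in a cell gave a coarser division. Cells with no SOX10 read were RXRG-positive in 36 cells at ss8 (16.9%), 10 at ss11 (8.47%) and 10 at ss15 (7.94%). At 100 to 500 CPM of SOX10 the counts were 4 of 25, 19 of 51 and 10 of 27, at 500 to 1000 CPM they were 8 of 8, 24 of 43 and 13 of 25, and at 1000 CPM or more 4 of 5, 17 of 38 and 37 of 58. At ss8 RXRG was thus in 12 of the 13 cells at or above 500 CPM of SOX10. At ss11 the share was not higher above 1000 CPM (44.7%, 28.6 to 61.7) than between 500 and 1000 CPM (55.8%, 39.9 to 70.9).

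RXRG-positive cells also had more genes detected than RXRG-negative cells of the same class at ss11 and ss15. At an equal 500000 reads, medians were 5902 genes in RXRG-positive and 4878 in RXRG-negative GATA3-positive cells at ss11, and 5807 and 4204 at ss15. In GATA3-negative cells they were 5301 and 4516.5 at ss11, and 5410 and 3717 at ss15. Total reads were close at ss11 (medians of 1021384 and 1049765 in GATA3-positive cells), but at ss15 RXRG-positive GATA3-positive cells had a median of 1037205 reads against 782959. The part of RNA content or library quality in the shares above was not tested. Doublets were not removed, and 11 GATA3-positive cells over the 3 stages held 4 or 5 of the 5 crest markers. Without them the GATA3-positive share was 1 of 11 at ss8 (9.09%), 35% at ss11 and 41% at ss15.

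At ss15, all 6 RXRG-positive cells among the VGLL2-positive ones were also SOX10-high. Of the 62 VGLL2-positive cells, 10 were also SOX10-high GATA3-positive, of which 5 were RXRG-positive, and 1 was SOX10-high GATA3-negative and RXRG-positive. The other 51 held 1 RXRG read in all, and 0 of 51 were positive, which allows a share of up to 5.88% by a floor of 3 counts, and up to 6.98% by the exact interval. At ss11, 2 of 25 VGLL2-positive SOX10-low cells were positive (8%, 0.98 to 26.03), at 37.5 and 51.8 CPM. Pooled RXRG there was 2.47 CPM at ss11 and 0.02 CPM at ss15. These 51 cells had a median of 837082 reads and 4974 genes, beside 854751 reads and 5021.5 genes in GATA3-positive ss15 cells, and they carried the epibranchial markers NELL1 (35 cells), ISL1 (37 cells) and PDLIM1 (38 cells). At ss11 the ratio to VGLL2-positive SOX10-low cells was 16.1 for GATA3-positive cells (12.6 to 21.1) and 37.5 for GATA3-negative cells (29.2 to 49). Beside this, 14.4% and 19.5% of all genes measured lay past 2-fold. The denominator was 62 reads from 2 cells, so these intervals leave out the spread between cells. Over all settings tried, the log2 folds ranged from 2.59 to 5.29 and from 3.71 to 6.73. At ss15, where the single read allows no useful ratio, 12.1% and 17.8% of genes measured were past 2-fold in these comparisons. From ss11 to ss15 within the VGLL2-positive SOX10-low cells RXRG was too low to be measured, beside 14.5% of measured genes past 2-fold.

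At ss8 RXRG was in 42.1% of SOX10-high cells (16 of 38) and in 17.9% of the other cells. Because few ss8 cells were SOX10-high, most RXRG-positive cells still lay outside that group. Of the 58 RXRG-positive ss8 cells, 41 were remaining cells, at 11.6 to 200 CPM with a median of 41.7 CPM, against 6 in the GATA3-positive class, 10 in the GATA3-negative class and 1 VGLL2-positive cell. The 3 plates of that stage gave 13 of 74, 11 of 81 and 17 of 77 remaining cells. The number of crest markers and the single markers were then compared. Among ss8 cells that were not SOX10-high, 19 with 0 or 1 of the 5 crest markers were RXRG-positive (19%), 19 with 2 or 3 (16.8%), and 4 with 4 or 5 (18.2%). Single markers went both ways in the remaining ss8 cells: TFAP2B was in 43.9% of RXRG-positive and 27.7% of RXRG-negative cells, EDNRB in 19.5% and 37.2%, and PAX7 in 34.1% and 34.6%.

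LMX1A, a LIM-homeobox gene of the early ear and roof plate, was one of several genes that were more frequent in these RXRG-positive ss8 cells. Among remaining ss8 cells LMX1A was at 10 CPM in 28 of 41 RXRG-positive cells (68.3%) and 58 RXRG-negative cells (30.4%), with a Spearman correlation of 0.31 over all remaining ss8 cells, which share libraries, plates and depth. CDH1, the epithelial cadherin, was in 65.9% of RXRG-positive and 35.1% of RXRG-negative remaining ss8 cells, the homeobox gene DLX6 in 46.3% and 18.8%, TFAP2E in 36.6% and 16.8%, and NELL1 in 63.4% and 45.5%. KRT18 was in 63.4% and 46.1%, UPK1B in 39.02% and 22.5%, PRDM1 in 48.8% and 36.6%, and SOX8 in 34.1% and 24.1%. DLX3 and TFAP2B were also more frequent in the RXRG-positive cells. Not all placodal, epithelial or crest-related genes differed in this way. EPCAM was in 92.7% and 91.6%, ISL1 in 9.76% and 9.95%, and SOHO-1 in 2.44% and 3.14%. Less frequent in RXRG-positive cells were FABP7 (73.2% and 84.8%) and GAL3ST1 (22% and 38.2%). In the NCBI RefSeq table of assembly GRCg7b, another build than that of the counts, RXRG and LMX1A are close neighbours on chromosome 8: SELE lies on one side of RXRG, and on the other a long noncoding RNA gene and then LMX1A. No gene overlaps RXRG in that table. In SOX10-high cells the correlation of LMX1A with RXRG was at most 0.07 in each class and stage. At ss8 LMX1A was in 2 of 6 RXRG-positive and 8 of 10 RXRG-negative GATA3-positive cells (correlation -0.28), and in 4 of 10 and 5 of 12 GATA3-negative cells (0.03). It was in 17 of 23 RXRG-positive and 22 of 40 RXRG-negative GATA3-positive cells at ss11, and in 15 of 27 and 17 of 37 at ss15, with correlations of 0.07 and 0.01. In GATA3-negative cells it was in 8 of 37 RXRG-positive and 14 of 32 RXRG-negative cells at ss11 and in 6 of 33 and 6 of 13 at ss15, with correlations of -0.30 over 69 cells and -0.43 over 46 cells. In remaining cells of ss11, 3 of 8 RXRG-positive (37.5%) and 20 RXRG-negative cells (20.6%) held LMX1A, with a correlation of 0.15, and at ss15 0 of 10 and 12 of 75 did, with a correlation of -0.18.

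Reads of the reporter itself, the signal used for the sort, were also counted in each library. In GATA3-negative cells RXRG was in 11 of 29 cells with reporter reads (37.9%, 20.7 to 57.7) and 26 of 40 without (65%, 48.3 to 79.4) at ss11, and in 8 of 18 (44.4%, 21.5 to 69.2) and 25 of 28 (89.3%, 71.8 to 97.7) at ss15. At ss15 these intervals lay apart. In GATA3-positive cells it was in 20 of 48 with (41.7%) and 3 of 15 without reporter reads (20%) at ss11, and in 22 of 52 (42.3%) and 5 of 12 (41.7%) at ss15, with overlapping intervals. At ss8 93.8% of the kept cells had reporter reads, and the 10 RXRG-positive GATA3-negative cells were among the 19 with them. Reporter reads were in 81.2% of GATA3-positive and 39.1% of GATA3-negative cells at ss15, although all had been sorted as EGFP-positive. The part of the reporter in the shares of RXRG was not tested.

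**Figure D4:**
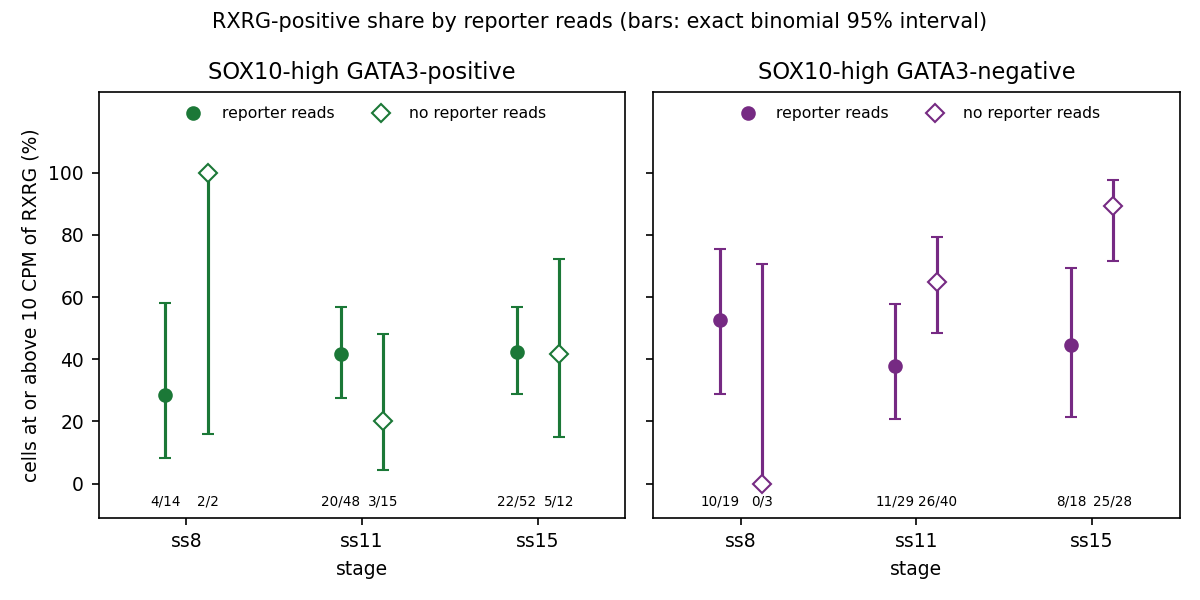
Share of RXRG-positive cells (vertical axis, percent) at each stage (horizontal axis) in SOX10-high GATA3-positive (left) and GATA3-negative cells (right), with reporter reads (filled circles) or without (open diamonds). Bars are exact binomial 95% intervals, and at ss15 GATA3-negative cells stand at 44.4% with reporter reads, against 89.3% without them.

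COL9A3 was the gene most like RXRG across cells. Spearman correlations with RXRG were taken over all kept cells of ss11 and, separately, of ss15, for 8917 genes at 10 CPM in at least 10% of cells at both stages, of which 1.66% had a symbol and could be named. Genes were ranked by the lower of the 2 values, and the correlations share cells, libraries and depth with each other. COL9A3, a chain of cartilage collagen IX, came first among all 8917 (0.55 at ss11 and 0.58 at ss15). SOX10, which was used to define the classes, was second of all genes (0.46 and 0.55), then the crest factor TFAP2B (0.38 and 0.56), SMPD3, which encodes a neutral sphingomyelinase (0.37 and 0.41), and FOXD3 (0.37 and 0.58). GAL3ST1, the sulphotransferase that makes the myelin lipid sulphatide (0.34 and 0.43), the G protein subunit GNG4 (0.31 and 0.46), the LIM-only factor LMO4 (0.31 and 0.34), ZCCHC24 (0.30 and 0.52) and B3GAT1L (0.32 and 0.29) made up the first 10 of the genes with a symbol. Among all 8917 genes, TFAP2B to B3GAT1L held ranks 4, 6, 8, 12, 19, 22, 24 and 30. At ss8 the same 10 ranged from 0.02 for GAL3ST1 to 0.32 for TFAP2B.

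At ss11 and ss15 COL9A3 was in most RXRG-positive cells of the GATA3-negative class and in a minority of those of the GATA3-positive class. In GATA3-negative cells both were at 10 CPM in 10 of 22 cells at ss8, 29 of 69 at ss11 and 28 of 46 at ss15, while RXRG was without COL9A3 in 0, 8 and 5 cells and COL9A3 without RXRG in 7, 5 and 3. In GATA3-positive cells both were in 4, 8 and 11 cells, and RXRG was without COL9A3 in 2, 15 and 16. In remaining ss8 cells 6 of the 41 RXRG-positive cells had COL9A3. Its pooled level was 36.8 CPM in GATA3-positive and 171.1 CPM in GATA3-negative cells at ss11, and 48.5 and 290.3 CPM at ss15.

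Of the genes with a symbol, the 5 least like RXRG had weak negative correlations, at ranks 3, 10, 13, 16 and 23 from the lowest of all genes. LARGE2, a glycosyltransferase, stood at -0.20 at each stage, EPCAM, the epithelial cell adhesion molecule, at -0.18 at ss11 and -0.36 at ss15, FGF8, a signal of early placodes, at -0.17 and -0.23, KIAA1217 at -0.20 and -0.17, and TSPAN13, a tetraspanin, at -0.16 and -0.43. Pooled EPCAM was 1003 CPM in GATA3-positive and 377 CPM in GATA3-negative cells at ss11, and 964 and 265.99 CPM at ss15.

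**Figure D5:**
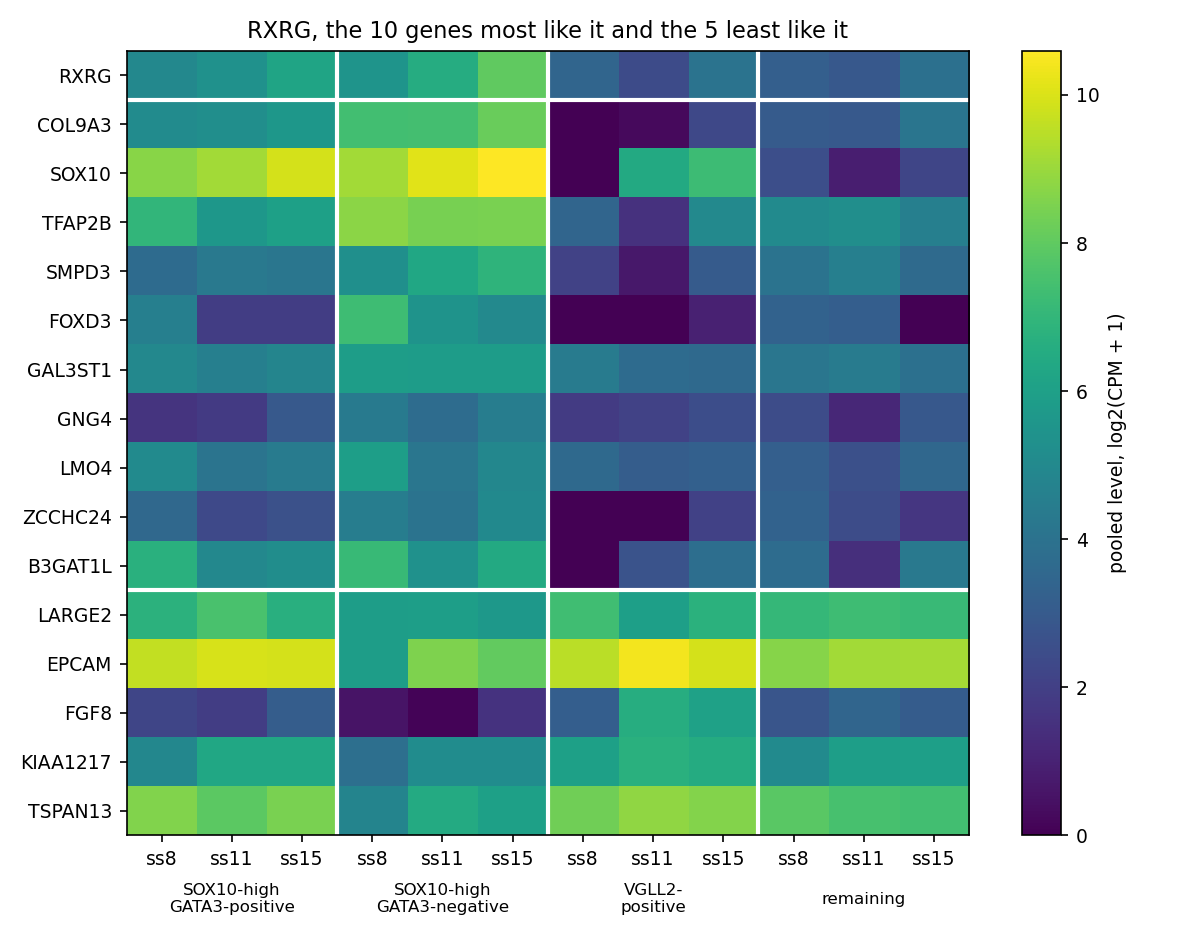
Pooled level (colour, log2 of CPM + 1) of RXRG, of the 10 named genes most like it and of the 5 named genes least like it (rows), by class and stage (columns). COL9A3 follows RXRG, with 48.5 CPM in GATA3-positive and 290.3 CPM in GATA3-negative SOX10-high cells at ss15, and EPCAM runs the other way, with 964 CPM in GATA3-positive and 265.99 CPM in GATA3-negative cells.

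Within GATA3-positive cells alone (63 at ss11 and 64 at ss15) the first 5 genes with a symbol, which 1.62% of 8775 genes had, were COL9A3 (0.44 and 0.49), SMPD3 (0.40 and 0.35), TFAP2B (0.31 and 0.50), ANOS1, the secreted protein anosmin (0.23 and 0.54), and SUFU, an inhibitor of hedgehog signalling (0.22 and 0.43). Their ranks among all genes were 1 for COL9A3, 8 for SMPD3 and 35 for TFAP2B, with ANOS1 below these and SUFU at 299. The lowest with a symbol were EPCAM (-0.24 and -0.33), the membrane protease ST14 (-0.26 and -0.20), the tight junction gene CLDN1 (-0.19 and -0.23), TMEM171 (-0.17 and -0.16) and SOHO-1 (-0.15 and -0.20). SOX10 itself had little relation to RXRG there at ss11 and ss15, at 0.02 and 0.19. Over the 16 GATA3-positive ss8 cells its correlation was 0.86. The 6 RXRG-positive cells among them had a median of 650 CPM of SOX10, and the 10 RXRG-negative ones 139.5 CPM. Crest markers differed as well, with FOXD3 in 4 of 6 and 0 of 10, and TFAP2B in 5 of 6 and 2 of 10. The part of crest-like cells or doublets in this value was not tested.

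Within GATA3-negative cells, a list added after the values had been seen, COL9A3 (0.63 and 0.56), FABP7, the fatty acid binding protein of early glia (0.46 and 0.46), SMPD3 (0.43 and 0.47), MEF2C, a MADS-box factor (0.44 and 0.40), and TFAP2B (0.39 and 0.39) were the first 5 of the genes with a symbol (1.26% of 8667), at ranks 3, 9, 11, 17 and 24 among all genes. COL9A3, SMPD3 and TFAP2B were among the first 5 named genes in both classes. The lowest with a symbol were the epithelial cadherin CDH1 (-0.39 and -0.53), EPCAM (-0.42 and -0.38), ATP8B1 (-0.38 and -0.39), CLDN1 (-0.33 and -0.53) and LMX1A (-0.30 and -0.43). At ss15, CDH1 was at 10 CPM in 1 of 33 RXRG-positive and 8 of 13 RXRG-negative GATA3-negative cells, and in 15 of 27 RXRG-positive and 27 of 37 RXRG-negative GATA3-positive cells.

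Few other genes of the retinoid pathway could be followed. Of 50 listed receptors, enzymes, carriers, partners, cofactors and targets, RXRG and 4 others had an identifier, and 0 of those 4 passed the filter on low values in any of the 10 comparisons of classes or stages. CYP26A1, the enzyme that breaks down retinoic acid and itself a target of it, was at 10 CPM in 3 of 16, 5 of 63 and 5 of 64 GATA3-positive cells and in 0 of 22, 5 of 69 and 1 of 46 GATA3-negative cells at ss8, ss11 and ss15. In remaining ss8 cells, the largest class, 51 cells held it, with 21.7 CPM pooled. In VGLL2-positive SOX10-low ss11 cells CYP26A1 stood at 20.6 CPM pooled. RBP4A, a form of the serum carrier of retinol, was at or below 10.4 CPM pooled in each class and stage, and in at most 7 cells of a class. THRB, a thyroid hormone receptor that pairs with retinoid X receptors, was at 5.53 CPM in GATA3-positive and 6.4 CPM in GATA3-negative cells at ss15, and 0.73 and 0.89 CPM at ss11. NR4A2, another partner, was at or below 3.34 CPM in both SOX10-high classes.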

How the data were processed

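The authors deposited 1 table of raw counts per gene and cell (24356 genes, 858 libraries) with a table of reporter counts. Per the labels and the study's methods, reads were trimmed with Cutadapt 2.10, aligned with HISAT2 2.2.1 to galGal6 with a GFP sequence, with SAMtools 1.10 for file handling and HTSeq 0.12.4 for counting. No limit on mitochondrial reads was applied. The sources differ on the sequencer used for ss8 cells.

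Libraries of 1 stage correlated above 0.95 in log2(CPM + 1) were joined (8 ss8 pairs, 0.996 to 0.998, the next at 0.867). Cells with at least 500000 reads and 1000 genes were kept, and counts were scaled to the total of each cell. Pooled CPM divides summed reads by summed totals. Folds were taken after adding 1 CPM. With 1 sample a stage there was no test, and a gene was called past 2-fold. Symbols for 332 identifiers came from the study's tables, as names only. Retinoid genes, class markers and the rule for named genes (the 10 most and 5 least like RXRG with a symbol, and 5 each way in GATA3-positive cells) were chosen with earlier results of these data known. Functions were tested on simulated data. Python 3.11.15 with pandas 2.3.3 and scipy 1.17.1, and R 4.3.3 with edgeR 4.0.16 (TMM factors, as an alternative), were used.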

Additional observations from a re-analysis of the deposited data

How the results depend on the processing

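Of the shares recomputed, 92.2% stayed within their main interval, and 96.7% of the log2 folds kept their direction and side of 2-fold. The intervals of small classes were wide, such as 0.84 to 90.6% for the 3 VGLL2-positive ss8 cells, so staying within them says little there. At an RXRG limit of 50 CPM the share was 29.7% in GATA3-positive ss15 cells, 6.47% in remaining ss8 cells and 0% in VGLL2-positive ss8 cells, also those that were SOX10-low. With at least 1000000 reads and 2000 genes, it was 70% in GATA3-positive, 23.8% in VGLL2-positive and 25% in remaining ss15 cells, and 0% in VGLL2-positive ss11 cells, also those that were SOX10-low, and the log2 fold of ss15 over ss11 in GATA3-positive cells was 1.08. There, RXRG was in 72.2% of GATA3-positive ss15 cells with reporter reads, and in 20% of GATA3-negative ones with and 100% without them. Before this limit there were only 18 GATA3-negative ss15 cells with reporter reads and 28 without. The median of the class, 880269 reads, lies below the limit, so these shares rest on few cells. Leaving SOX10-high cells out of the VGLL2-positive ss15 cells gave 0%.

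Leaving out 1 ss8 plate at a time moved the GATA3-positive over GATA3-negative log2 fold at ss8 between -1.74 and 0.11, with the sign turned without plate 1, and the VGLL2-positive share at ss8, also of SOX10-low cells, was 0% without plate 3. With 2 alternatives chosen after seeing the data, dividing SOX10-high cells by SOHO-1 and TFAP2B gave 27.7% for SOHO-1 cells at ss15, and 69.4% and 86.1% for TFAP2B cells at ss11 and ss15, with a log2 fold of -1.20 at ss8. Leaving out GATA3-positive cells with 4 or 5 crest markers gave 9.09% and -2.72 at ss8. The cause of these changes was not tested.

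The share of measured genes past 2-fold, without a limit on the share of cells and at 1 CPM, was 23.4%, 30.7% and 34.8% at ss11 (GATA3-positive over GATA3-negative, then each over VGLL2-positive SOX10-low cells), 28.9%, 26.9% and 33.3% at ss15, and 21.3%, 24.7% and 31.5% for ss15 over ss11 (GATA3-positive, GATA3-negative and VGLL2-positive SOX10-low). At 50 CPM these were 6.65%, 9.83% and 14.8%, then 9.12%, 8.63% and 14.7%, then 3.34%, 4.73% and 9.48%. In the same order the main values were 9.9%, 14.4% and 19.5%, then 13%, 12.1% and 17.8%, then 6.21%, 8.38% and 14.5%. Of the 10 named genes most like RXRG, 7 were the same with Pearson correlations and 9 after thinning, with COL9A3 first in both.

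No paired analysis was possible because each stage was 1 sample and well numbers do not pair cells. Few ss8 cells were SOX10-high, which limits each ss8 value.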

Other observations

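RLBP1, which encodes a retinaldehyde-binding protein, was not on the list of retinoid genes and was noticed after its values were seen. It was at 10 CPM in 11 of 63 GATA3-positive and 14 of 69 GATA3-negative cells at ss11, and in 14 of 64 and 14 of 46 at ss15. Its Spearman correlation with RXRG over all kept cells was 0.27 at ss11 and 0.38 at ss15. Only 4 remaining cells at ss11 and 3 at ss15 held it.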
